A study of Mus musculus with 3 samples.

Results

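The miR-23, miR-27 and miR-24 microRNAs of mouse are made from 2 small clusters, each a single stretch of DNA that holds 1 hairpin of every kind. The a cluster holds Mir23a, Mir27a and Mir24-2 and the b cluster holds Mir23b, Mir27b and Mir24-1. Every row of the deposited table named after miR-23a, miR-23b, miR-27a, miR-27b or miR-24, of either arm, was taken, which gave 9 of 471 rows. The members were thus chosen by name.

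The rows were measured in colonic mucosa by small RNA sequencing of 3 mouse libraries, 1 per group. WT is labelled healthy and global mir-10b+/+. KO is labelled diabetic and global mir-10b-/-, which means that genotype and diabetic state are confounded in the comparison with WT. The third library, called mimic here, is labelled rescue and comes from global mir-10b-/- mucosa after injection of a miR-10b-5p mimic, a synthetic form of the deleted miRNA. KO and mimic thus share the deletion, and the mir-10b loss is global, not limited to a cell type. Whether the mimic mice were diabetic is not stated. Age, sex, strain, the dose and time of the injection, a control injection and the number of animals behind each library are not stated in the labels or the table. Every comparison below is between single libraries, has no replicate check and carries no test.

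Each hairpin is cut from a longer primary transcript by Drosha and then Dicer, which leaves a duplex of a 5p and a 3p strand. One strand is usually loaded into an Argonaute protein and kept, and the other is mostly degraded. Bases 2 to 8 of the loaded strand, the seed, pair with target messages, so miRNAs with the same seed are expected to share many targets. In this family the 3p strands are the main products. miR-27 is known for restraining fat cell formation and lipid genes such as Pparg, and miR-24 for restraining cell cycle genes such as E2f2. The clusters are also well known in endothelial cells and blood cell lineages.

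The mature strands are shown first because the comparison of a with b rests on how much of each sequence the clusters share. Sequences are from RefSeq on GRCm38.p6, written 5′ to 3′ with the seed in capitals. Of the 9 rows, 7 matched an entry by name. miR-23b-3p had none, and the miR-24-5p row carries no copy number whereas the reference names miR-24-1-5p and miR-24-2-5p.
miR-23a-3p: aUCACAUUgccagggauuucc
miR-27a-3p: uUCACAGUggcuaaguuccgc
miR-27b-3p: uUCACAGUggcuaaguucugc
miR-24-3p: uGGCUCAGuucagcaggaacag
miR-23a-5p: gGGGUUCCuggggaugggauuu
miR-27a-5p: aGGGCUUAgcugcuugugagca
miR-27b-5p: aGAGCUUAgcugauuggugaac
miR-24-1-5p: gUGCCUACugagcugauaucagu
miR-24-2-5p: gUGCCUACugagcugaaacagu

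The 3p strands of miR-27a and miR-27b share their seed and differ at 1 of 21 bases, C19U, counted from 1 at the 5′ end with the miR-27a base first. Reads of these strands can be told apart only by that base, and how the authors counted reads with a mismatch is not given in the sources used here, so the split of miR-27-3p between a and b is uncertain to that extent. miR-23a-3p and miR-23b-3p are likewise known as near-identical paralogs, and their split carries the same uncertainty. Compared base by base with no gap allowed, the 5p strands of miR-27a and miR-27b differ at 8 of 22 bases, 1 of them in the seed (G3A). Without gaps, a base gained or lost counts as a run of differences, so these counts can overstate the number of changes. The 5p strands are still easier to assign than the 3p strands and do not have the same seed. miR-24-3p is the same 22 bases from both clusters, so its row cannot be divided between a and b. The 5p strands of the miR-24 hairpins share a seed and differ at 5 of 22 bases compared, again with no gap allowed.

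The hairpins of miR-27 are shown because the order of a and b turned over between libraries in their 5p arms, with the mature strands in capitals. Mir27a lies on the plus strand at chr8:84208672-84208758 and Mir27b on the plus strand at chr13:63300712-63300784.
Mir27a: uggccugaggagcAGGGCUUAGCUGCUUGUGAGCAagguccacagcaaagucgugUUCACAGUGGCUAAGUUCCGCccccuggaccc
Mir27b: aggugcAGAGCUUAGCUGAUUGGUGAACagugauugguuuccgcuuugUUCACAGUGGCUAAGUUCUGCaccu

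The a cluster spans 404 bases of chromosome 8, from 84208518 to 84208921 on GRCm38. No protein-coding gene overlaps it in GENCODE M21, and the nearest, Zswim4, lies on the other strand 1757 bases from Mir24-2. The last 2 bases of Mir24-2 overlap the start of the long noncoding RNA Gm26532. The b cluster spans 792 bases of chromosome 13, from 63300484 to 63301275, inside 2010111I01Rik on the same strand and Fancc on the opposite strand. Mir23b was intronic in all 9 transcripts of 2010111I01Rik that cover it. Mir27b was intronic in 8 of 9 such transcripts and Mir24-1 in 7 of 11, and they overlapped an exon in the others. The map of the hairpins shows that both clusters keep the order miR-23, miR-27, miR-24, and that the b cluster is the longer because Mir24-1 starts 724 bases after Mir23b, against 297 bases from Mir23a to Mir24-2.

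**Figure D1:**
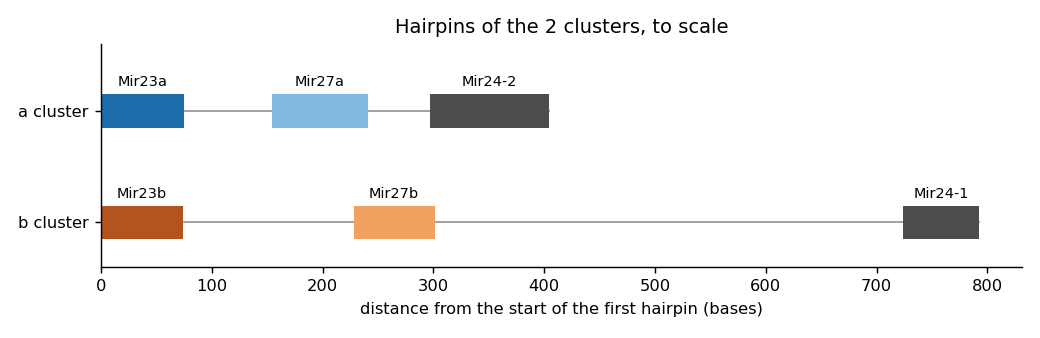
Hairpins of the a cluster (chromosome 8) and the b cluster (chromosome 13), drawn to scale as bars along the distance in bases from the start of the first hairpin. The order of the 3 kinds of hairpin is the same, and Mir24-1 starts 724 bases into the b cluster against 297 bases for Mir24-2 in the a cluster.

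The deposited values are normalized reads, which summed to 4872446 for WT, 8124898 for KO and 8510085 for mimic. In KO and mimic the values between 9 and 1000 were rounded multiples of a fixed step, 1.394 in 98.5% of 259 values and 1.5588 in 98.1% of 262 values. One sequenced read was therefore worth that many normalized reads, and the columns stand for about 5828478 reads in KO and 5459382 reads in mimic. No such step was found in WT, whose depth is unknown. Intervals below are exact 95% intervals of read counts in KO and mimic. They cover counting error only, not variation between animals or libraries, since each group has 1 library. Whether reads carry molecular identifiers is not given in the sources used here. If they carry none, copies made in amplification would leave the intervals too narrow. miR-10b-5p stood at 18057 for WT, 14 for KO and 469 for mimic. As a check of the tissue label, 15 rows of gut epithelial miRNAs took 31.7% of WT, 31.6% of KO and 29.0% of mimic, with no row at 0. The 8 smooth muscle rows named below took 11.8%, 13.1% and 26.4% of the same libraries, so the libraries were not alike in this respect.

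The family made up a large part of every library. Its 9 rows held 12.8% of all normalized reads for WT, 6.04% for KO and 9.87% for mimic. The 5 main strands, all 3p, accounted for nearly all of this, and the 4 rows of 5p strands together took 0.0416%, 0.0356% and 0.0633% of the same libraries. The share was lowest in KO and highest in WT. A share depends on the library total, which differed between the libraries. In the deposited values the 9 rows summed to 623538 for WT, 490887 for KO and 840256 for mimic. On that scale KO was 0.787 times WT, and mimic, at 1.35 times WT, was the highest. In whole mucosa a smaller number of cells of one type and less RNA per cell cannot be told apart.

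miR-27b-3p was the most abundant member in every library, at 299991 normalized reads for WT, 277980 for KO and 567023 for mimic. It ranked 4th, 6th and 4th among all rows. Its mimic value was 2.04 times its KO value and 1.89 times its WT value, while WT and KO differed by 1.08-fold. The counting interval in KO ran from 276762 to 279203 and in mimic from 565182 to 568869.

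miR-23a-3p came second in WT and KO, at 118055 for WT, 77778 for KO and 68171 for mimic. It was highest in WT, at 1.52 times the KO value and 1.73 times the mimic value. miR-23b-3p stood at 75844 for WT, 41292 for KO and 51637 for mimic. Like its paralog it was highest in WT, at 1.84 times the KO value and 1.47 times the mimic value.

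miR-27a-3p stood at 96824 for WT, 64676 for KO and 111800 for mimic. WT exceeded KO by 0.58 on the log2 scale and mimic was 1.73 times KO, so that KO was the lowest of the libraries and mimic the highest. In mimic it stood above miR-23a-3p, whereas in WT and KO it stood below. miR-24-3p, the product of both clusters, was the least abundant main strand, at 30796 for WT, 26266 for KO and 36240 for mimic. Its values spanned 1.38-fold between KO and mimic, the narrowest range of the 5 main strands.

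**Figure D2:**
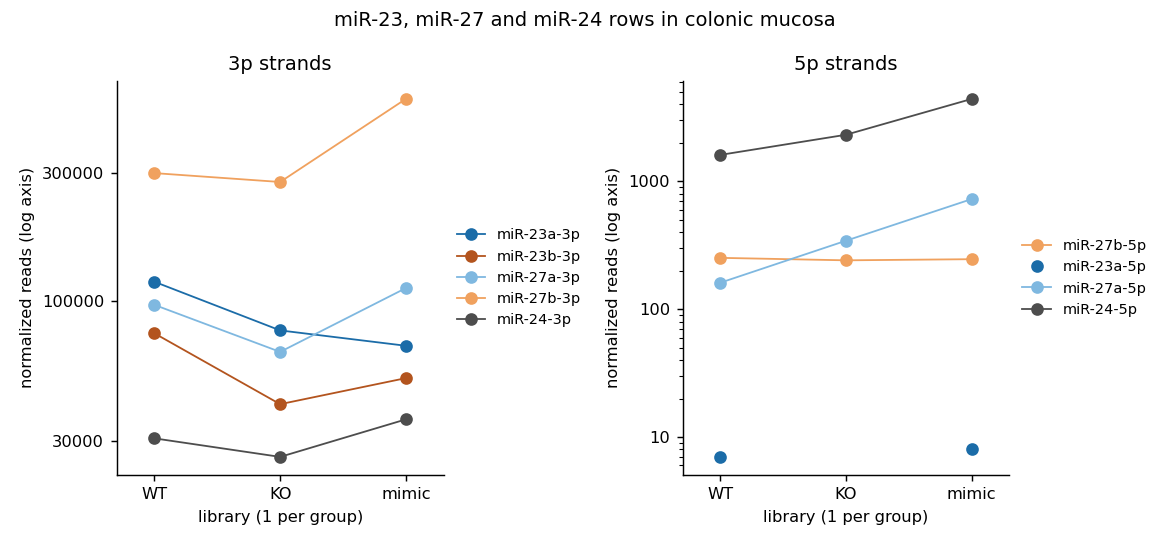
Normalized reads of the 9 rows (log axis) in the WT, KO and mimic libraries, 1 per group, with 3p strands on the left and 5p strands on the right and lines joining the values of a strand. miR-27b-3p is the highest strand throughout and reaches 567023 in mimic, miR-27a-5p is at 161, 343 and 726 while miR-27b-5p is at 252, 241 and 246, and miR-23a-5p, listed at 0 in KO, has no point there.

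The 5p strands were scarce, apart from that of miR-24. miR-24-5p stood at 1608 for WT, 2311 for KO and 4405 for mimic, and the KO interval of 2201 to 2425 did not reach the mimic interval of 4244 to 4571. miR-27a-5p stood at 161 for WT, 343 for KO and 726 for mimic. From KO, with an interval of 301 to 389, to mimic, with 662 to 795, it was 2.12-fold higher, and from WT to KO it was 2.13-fold higher.

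miR-27b-5p stood at 252 for WT, 241 for KO and 246 for mimic. The intervals of 207 to 280 in KO and 209 to 288 in mimic overlapped almost fully, so no difference between those libraries was detectable at this depth. miR-23a-5p was at 7 for WT, 0 for KO and 8 for mimic, the last standing for 5 reads. By the usual floor, a count of 0 in KO allows up to 3 reads, or 4.18 normalized reads, and the two-sided exact interval reaches 5.14. No fold is given. miR-23b-5p had no row among the deposited values.

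The comparison of KO with WT asks what differs in knockout, diabetic mucosa. Of the 9 rows, 8 had a mean of at least 10 over the libraries, and of these 1, miR-27a-5p, was at least 2-fold higher in KO (log2 ratio 1.09) and 0 were at least 2-fold lower. Over all 415 rows with such a mean, 21.2% were higher and 9.64% lower by that limit. All 5 main strands had values below WT, with log2 ratios of -0.60 for miR-23a-3p, -0.88 for miR-23b-3p, -0.58 for miR-27a-3p, -0.11 for miR-27b-3p and -0.23 for miR-24-3p. Their median was -0.58, the median of the 8 rows was -0.17 and that of all 415 rows was 0.13. The median of the main strands thus lay at -0.71 relative to the middle of the table, a difference that a scaling factor leaves nearly as it is. miR-23b-3p lay nearest to the limit among the rows that did not pass it. Of the other 5p strands, miR-24-5p was at 0.52 and miR-27b-5p at -0.06.

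The comparison of mimic with KO sets the injected knockout beside the knockout without it. KO is labelled diabetic and mimic rescue, so disease label and injection differ together and cannot be told apart. Here 2 of 8 rows, miR-27b-3p (1.03) and miR-27a-5p (1.08), passed 2-fold upward in mimic and 0 passed it downward, against 13.3% and 28.2% of all rows. miR-27b-3p passed the limit by little, and miR-24-5p (0.93) and miR-27a-3p (0.79) lay just short of it. miR-24-3p was at 0.46, miR-23b-3p at 0.32 and miR-23a-3p at -0.19. The median of the 8 rows was 0.63 and that of all rows was -0.31, and the median of the main strands lay 0.78 above the latter.

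Mimic was also set beside WT, to show the distance of the injected knockout from the wild type. In it 2 of 8 rows, miR-27a-5p (2.17) and miR-24-5p (1.45), were at least 2-fold higher in mimic and 0 were at least 2-fold lower, against 19.8% and 25.8% of all rows. miR-27b-3p was at 0.92, while miR-23a-3p was at -0.79 and miR-23b-3p at -0.55. The median of the 8 rows was 0.22 and that of all rows was -0.14. KO enters the first and second comparison, and mimic and WT each enter 2, so their values are not independent.

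These ratios depend on how the libraries are set on one scale. Scaling the libraries to the same total added -0.74 to each log2 ratio of KO against WT, -0.07 to those of mimic against KO and -0.80 to those of mimic against WT, and median-of-ratios factors added -0.15, 0.29 and 0.14. With the same total, 0 of 8 rows were higher and 3 were lower in KO than in WT, namely miR-23a-3p (-1.34), miR-23b-3p (-1.61) and miR-27a-3p (-1.32). In mimic against WT the same scaling left 1 row higher and made 2 lower, miR-23a-3p (-1.60) and miR-23b-3p (-1.36). Signs of the 5 main strands were kept under every scaling in KO against WT. They turned for miR-23a-3p in mimic against KO with median-of-ratios factors (0.10), and for miR-27a-3p (-0.60) and miR-24-3p (-0.57) in mimic against WT with the same total. Of the 5p rows, miR-24-5p turned to -0.21 in KO against WT with the same total. miR-27b-5p turned to -0.04 in mimic against KO with the same total and to 0.10 in mimic against WT with median-of-ratios factors.

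Shares within a library amount to scaling to the same total, so they rest on that choice. The miR-27 seed, summed over miR-27a-3p and miR-27b-3p, took 8.14% of WT, 4.22% of KO and 7.98% of mimic. The miR-23 pair of 3p strands took 3.98% of WT, 1.47% of KO and 1.41% of mimic. Thus the miR-27 share in mimic lay near that in WT, whereas the miR-23 share in mimic lay near that in KO. In the deposited values the miR-27 sum in mimic was instead 1.71 times that in WT. The miR-23 sum in mimic was 1.01 times that in KO. miR-24-3p took 0.632%, 0.323% and 0.426%. A share also moves with every other miRNA of the library, and the smooth muscle list (8 rows of miR-143, miR-145a, miR-1a, miR-133a and miR-133b) took 11.8% of WT, 13.1% of KO and 26.4% of mimic.

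**Figure D3:**
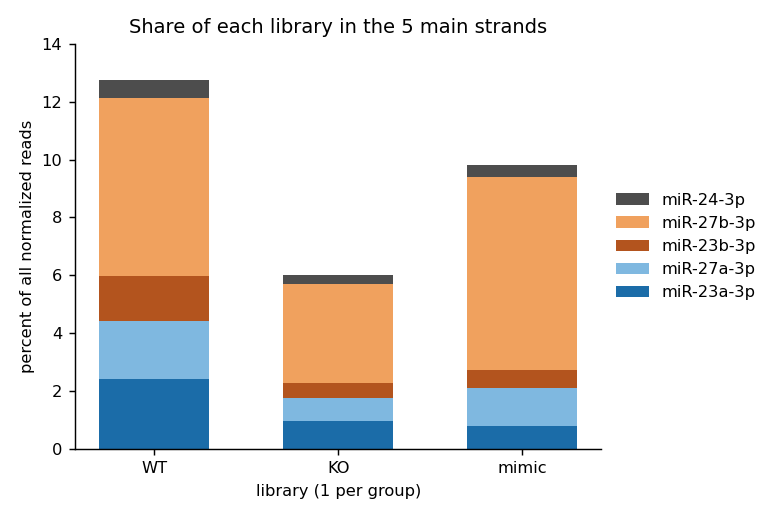
Percent of all normalized reads of each library taken by the 5 main strands, as stacked bars for WT, KO and mimic, 1 library per group. The stack is 12.8% for WT, 6.01% for KO and 9.81% for mimic, with miR-27b-3p the largest part of each bar.

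The b-to-a comparison was made as a ratio within each library, from which any factor common to the library drops out. The miR-27 strands favoured the b cluster and the miR-23 strands the a cluster. miR-27b-3p was 3.10 times miR-27a-3p for WT, 4.30 times for KO and 5.07 times for mimic, so that b was the larger in every library. miR-23a-3p was 1.56 times miR-23b-3p for WT, 1.88 times for KO and 1.32 times for mimic, so that a was the larger in every library. The paralog ratios of the 3p strands moved between libraries by at most 0.71 on the log2 scale, for miR-27 in mimic against WT.

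In the 5p strands of miR-27 the order of the clusters turned over. miR-27b-5p was 1.56 times miR-27a-5p in WT. In KO miR-27a-5p was 1.42 times miR-27b-5p and in mimic 2.94 times. miR-27b-5p made up 61.0% of the pair in WT, 41.3% in KO (95% Clopper-Pearson interval 36.5 to 46.2, 419 reads) and 25.3% in mimic (22.0 to 28.9, 624 reads), and the intervals of KO and mimic did not overlap. The log2 ratio of b to a differed by -1.15 from WT to KO, -1.05 from KO to mimic and -2.20 from WT to mimic. In each comparison it went the opposite way from the 3p strands of the same hairpins, whose b-to-a ratio was higher by 0.47, 0.24 and 0.71.

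The same quantity was computed for 129 other pairs of paralogous strands in the table, many of which share a strand. A difference of at least 2-fold in either direction was found in 22.5% of these between KO and WT, 45.0% between mimic and KO and 38.8% between mimic and WT. A shift of the size of that of miR-27-5p was thus not rare, and 13 of the 129 pairs had a larger one in mimic against WT. The absolute differences of the 3p pairs were 0.28 (miR-23) and 0.47 (miR-27) between KO and WT, where the median of other pairs was 0.49. Between mimic and KO they were 0.51 and 0.24 against a median of 0.90, and between mimic and WT 0.24 and 0.71 against 0.75. The miR-27 pair thus lay close to the median in the comparisons with WT and below it between mimic and KO.

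**Figure D4:**
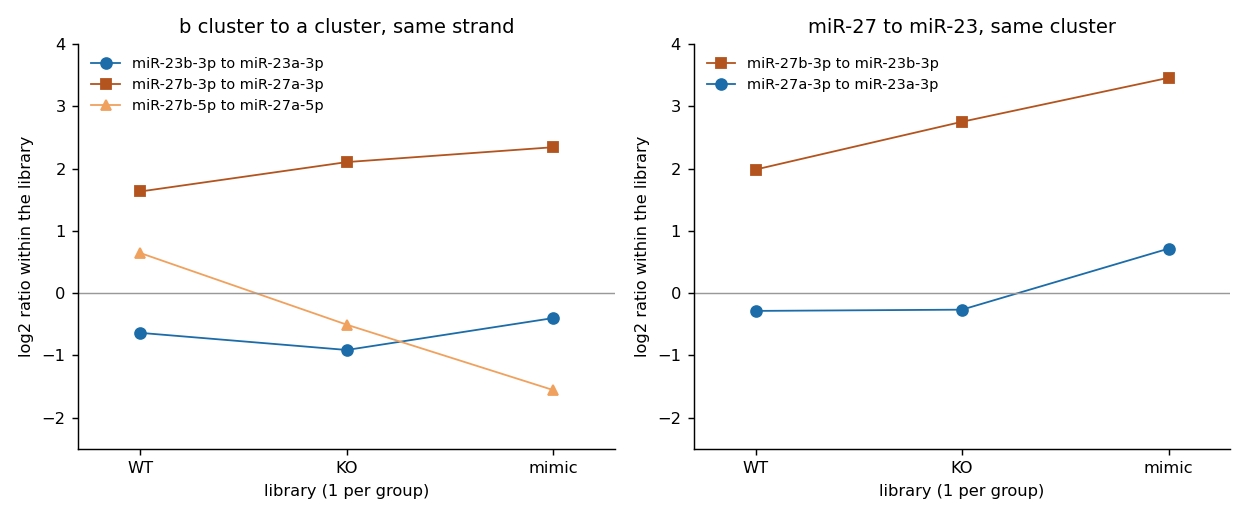
Log2 ratios within each library (WT, KO, mimic, 1 per group): the b strand to the a strand on the left and miR-27-3p to miR-23-3p of one cluster on the right, with lines joining the values of a pair. On the left miR-27b-5p to miR-27a-5p goes from 0.64 to -1.56 while the 3p pairs keep their sign, and on the right both clusters are highest in mimic, at 3.46 (b) and 0.71 (a).

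Strands cut from one primary transcript were compared in the same way. In the b cluster miR-27b-3p was 3.96 times miR-23b-3p for WT, 6.73 times for KO and 10.98 times for mimic. In the a cluster miR-27a-3p was 0.820 times miR-23a-3p for WT, 0.832 times for KO and 1.64 times for mimic. From KO to mimic miR-27 was thus higher relative to miR-23 in both clusters, by 1.63-fold in b and 1.97-fold in a. From WT to KO the ratio was higher by 1.70-fold in b and by 1.01-fold in a. Only the b cluster in mimic against WT passed 2-fold, at 2.78-fold, and the a cluster in that comparison lay at the limit with a log2 difference of 0.9997.

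Among 233 other pairs of main strands from hairpins within 10000 bases of each other, 51.5% differed by at least 2-fold between KO and WT, 51.1% between mimic and KO and 59.2% between mimic and WT. Of these pairs, 194 combine 38 strands of chromosome 12, which holds the imprinted Dlk1-Dio3 cluster, so many share a strand. Among the 39 pairs elsewhere the shares were 59.0%, 53.8% and 28.2% in the same order. The miR-27 to miR-23 ratio of the a cluster in KO against WT was closer to unchanged than that of 230 of the 233 pairs. For the ratio of the b cluster this held against 152 of them. Strands of the other pairs needed a mean of only 10, so their ratios can rest on few reads.

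The arms of a hairpin were compared last. The 3p strand of miR-27a exceeded its 5p strand 598-fold in WT, 188-fold in KO and 154-fold in mimic. For miR-27b the ratio was 1186 for WT, 1149 for KO and 2296 for mimic. For miR-24 it was 19.1, 11.4 and 8.23. The 5p share of miR-27a and of miR-24 was thus lowest in WT and highest in mimic, and that of miR-27b was lowest in mimic.

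In normalized reads, miR-27a-5p was 0.166% of both miR-27a arms in WT, 0.528% in KO (0.464 to 0.597) and 0.645% in mimic (0.588 to 0.707). The KO and mimic intervals thus overlapped slightly. WT has no interval, because its read counts were not recovered. miR-27b-5p was 0.0839% of both arms in WT, 0.0866% in KO (0.0742 to 0.101) and 0.0434% in mimic (0.0369 to 0.0507), without overlap between KO and mimic. miR-24-5p was 4.96% in WT, 8.09% in KO (7.72 to 8.47) and 10.8% in mimic (10.5 to 11.2), again without overlap.

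On the log2 scale the 3p-to-5p ratio of miR-27a differed by -1.67 in KO against WT and -1.96 in mimic against WT, both past 2-fold, and by -0.29 in mimic against KO. For miR-27b the differences were -0.05, 0.95 and 1.00 in the same order, the last just short of the limit at 0.9989. For miR-24 they were -0.75 in KO against WT, -1.22 in mimic against WT and -0.47 in mimic against KO. Of 139 other hairpins with both arms, 50.4% differed by at least 2-fold between KO and WT, 49.6% between mimic and KO and 51.1% between mimic and WT. Of the 3 arm ratios of the family, 1 (miR-27a) passed that limit between KO and WT and 0 between mimic and KO. Between mimic and WT 2 passed it, miR-27a and miR-24, the latter not a single hairpin. The difference of miR-27b between KO and WT was nearer to 0 than in 137 of 139 hairpins. Each arm of those hairpins needed a mean of only 10, so their ratios can rest on few reads of the scarce arm.

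**Figure D5:**
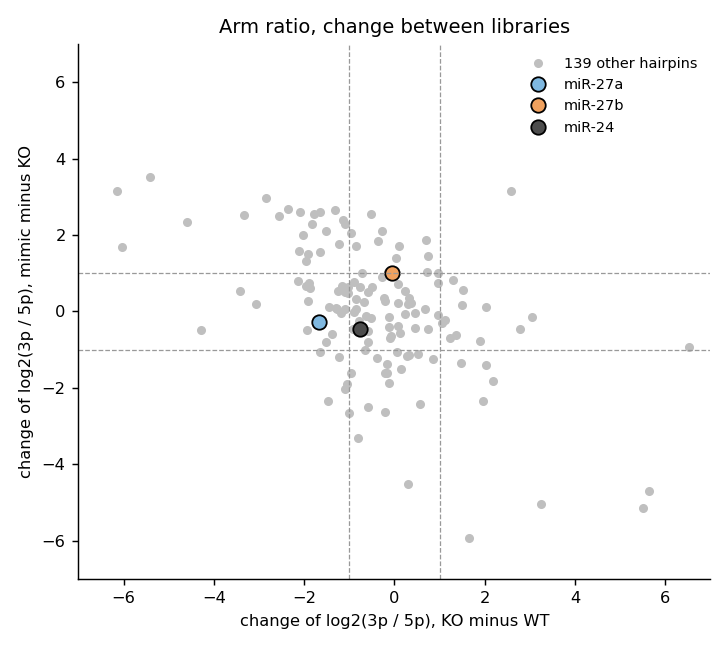
Difference of the log2 ratio of 3p to 5p between libraries, KO minus WT on the x axis and mimic minus KO on the y axis, for 139 other hairpins (grey) and miR-27a, miR-27b and miR-24, with dashed lines at 2-fold. miR-27a lies left of the line at -1.67 and miR-27b lies near 0 on the x axis and at 1.00 on the y axis.

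Markers of cell types in mucosa were read beside these values. For scale, of all 415 rows 21.2% were at least 2-fold higher and 9.64% lower in KO against WT. The shares were 13.3% and 28.2% in mimic against KO and 19.8% and 25.8% in mimic against WT. miR-126a, of endothelium, summed over its 2 rows to 1.23% of WT, 0.959% of KO and 1.44% of mimic, with 1 of 2 rows past 2-fold, upward, when mimic was set against WT, and 0 of 2 in the other comparisons. Of 7 smooth muscle rows with a mean of at least 10, 5 passed 2-fold upward and 0 downward from KO to mimic, 6 and 0 from WT to mimic, and 3 and 1 from WT to KO, and 1 of the 8 rows, miR-1a-5p, was at 0 in KO. White blood cell miRNAs (5 rows) took 0.749% of WT, 0.239% of KO and 0.609% of mimic, with 1 row higher in mimic than in KO and 1 lower than in WT in each of KO and mimic. Gut epithelial miRNAs had 4 of 15 rows higher and 1 lower in KO than in WT, 1 higher and 3 lower in mimic relative to KO, and 4 higher and 0 lower in mimic relative to WT. Mesenchymal miRNAs (5 rows) took 1.47%, 1.05% and 0.740%, with 1 row lower in mimic than in KO, 2 lower in mimic than in WT and 0 past 2-fold between KO and WT. Red blood cell miRNAs (3 rows) took 0.0402%, 0.0195% and 0.0347%, with 2 rows higher in KO than in WT, 1 higher in mimic than in KO, 2 higher in mimic than in WT and 0 lower in any comparison. The part of any of these cell types in the values of miR-23, miR-27 and miR-24 was not tested.

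Among 294 rows outside the family with a mean of at least 100, those nearest to each main strand were found by the Euclidean distance over the log2 ratios of KO to WT and mimic to KO, that is over 3 libraries. miR-27b-3p was nearest to miR-28c (distance 0.20), miR-30b-3p (0.22) and miR-3105-3p (0.22), and miR-27a-3p to miR-490-3p (0.17), miR-511-3p (0.18) and miR-345-5p (0.22). miR-23a-3p was nearest to miR-136-3p (0.09), miR-18a-5p (0.10) and miR-378c (0.21), and miR-23b-3p to miR-16-3p (0.08), let-7b-3p (0.16) and miR-133b-3p (0.17). miR-24-3p was nearest to miR-1839-3p (0.06), miR-3068-3p (0.08) and miR-29c-5p (0.11). No row was among the nearest 3 of more than one main strand.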

How the data were processed

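Small RNA of mouse colonic mucosa was measured in 3 libraries, 1 per group, grouped by the labels. The deposited values are treated as a score, because per the file headers they are normalized miRNA reads and yet every value is a whole number, rounded by the authors. The authors' difference columns equalled the subtraction with 0 exceptions and were not used. mm10 is the build that the submitters' processing notes name. Aligner, counting tool, miRNA reference and normalization: not given in the sources used here. Ratios are log2 after adding a pseudocount of 1. Rows with a mean below 10 (56 of 471) were left out of counts, and a row or ratio was counted at 2-fold or more. Pairs used rows with a name that occurs once. The worth of 1 read was sought as the step between 1.02 and 4 whose rounded multiples match most values from 9 to 1000, beyond the 71.7% (KO) and 64.2% (mimic) that any step of that size matches. The best step in WT matched 75.6% and was rejected. Counting was tested on simulated data. Members, lists and settings were chosen with earlier results of these data known. The rule for named rows was to name every member row and the 3 nearest rows of each main strand. Calculations used Python 3.11.15, pandas 2.3.3 and scipy 1.17.1.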

Additional observations from a re-analysis of the deposited data

How the results depend on the processing

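No paired analysis was possible because each group has 1 library, and for the same reason no replicate could be left out. A count was taken as stable within 1.5 times its value, and a ratio as stable on the same side of 2-fold. Alternatives were scaling to the same total, with and without miR-10b, median-of-ratios factors, a 1.5-fold limit, both arms summed, a pseudocount of 0.1 or 10, and for low rows either no filter or a minimum mean of 100. Of 99 recomputed counts and differences of ratios 82 were stable, among them every within-library ratio. Those ratios were recomputed only with the other pseudocounts and, for miR-27b to miR-27a, with both arms summed. Scaling drops out of them, and the pseudocounts are small beside their values, so their stability says little. The 17 that were not stable were counts of member rows. In KO against WT the count of higher rows, 1 as reported, was 0 with the same total, with or without miR-10b, and with median-of-ratios factors. Lower rows, 0 as reported, numbered 3 with the same total, with or without miR-10b, 1 with median-of-ratios factors, 1 with no filter (miR-23a-5p) and 2 with a 1.5-fold limit. In mimic against KO the count of higher rows, 2 as reported, was 1 with the same total, with or without miR-10b, 4 with median-of-ratios factors and 4 with a 1.5-fold limit. In mimic against WT higher rows numbered 1 with the same total, with or without miR-10b, against 2, and lower rows numbered 2 with that scaling and 1 with a 1.5-fold limit, against 0. The scaling counts follow from the constant each scaling adds to a ratio. Of 120 recomputed ratios of single rows, 14 newly passed 2-fold, 7 no longer did and 99 kept their side. Depth limits miR-23a-5p most, at 0 reads in KO and 5 in mimic.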

Other observations

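The seeds of the family were looked for in other rows of the table. Of 378 other names with a RefSeq mature sequence, 0 had the seed of a member strand at bases 2 to 8. A shorter match, in which bases 2 to 7 of another strand equal bases 3 to 8 of a member, was found for miR-128-3p with both miR-27a-3p and miR-27b-3p, and for miR-21a-5p with miR-27b-5p. miR-128-3p stood at 863 for WT, 1042 for KO and 263 for mimic. It was among the 28.2% of all rows that were at least 2-fold lower in mimic than in KO. miR-21a-5p stood at 319136, 1360772 and 626341. A shared stretch is a description of the letters and says nothing of shared targets in this tissue.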
